A study of Mus musculus with 18 samples.

Results

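The thin filament of the sarcomere, the contractile unit of heart and skeletal muscle, is described here through 10 genes: the troponins Tnnt2, Tnnc1, Tnni3, Tnni1, Tnnt1 and Tnni2, the tropomyosin Tpm1, the sarcomeric actins Actc1 and Acta1, and the leiomodin Lmod2. They were listed by name and found through the annotation that pairs probe sets with genes. All 10 were on the array, as 17 of 45101 probe sets and 10 of 18193 genes. RNA came from D3 embryonic stem cells (mouse), differentiated in embryoid bodies, which are cell aggregates, and was measured on 18 Affymetrix arrays in 9 groups of 2. Selected cardiomyocytes (2 arrays) carried a neomycin phosphotransferase gene under the aMHC promoter (alpha myosin heavy chain, the gene Myh6) and had been selected with the antibiotic G418. The labels give these cells no day and no batch, so transgene, selection, time and batch cannot be told apart in comparisons with them. GFP+ cells (8 arrays) and GFP- cells (8 arrays) carried green fluorescent protein (GFP) under an Nkx2-5 enhancer and the Hsp68 minimal promoter. They were sorted by flow cytometry on days 5, 6, 7 and 8 of differentiation, each in batch 1 and batch 2. Nothing in the labels tells whether 2 arrays of 1 group are separate cultures, so a p-value here speaks only of the spread among these arrays, which may be technical.

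In muscle, calcium binds troponin C (Tnnc1 in heart and slow muscle), which relieves the inhibition by troponin I, and troponin T ties both to tropomyosin, so that tropomyosin moves on the actin filament and myosin can bind. Each of these proteins comes in isoforms. Tnnt2 and Tnni3 are the cardiac forms of troponin T and I, Tnnt1 and Tnni1 the slow skeletal forms, and Tnni2 is the fast skeletal troponin I. The embryonic mouse heart makes much Tnni1, which Tnni3 replaces with maturation. Actc1 is the cardiac and Acta1 the skeletal alpha actin, and both are made in the developing heart. Lmod2 lets actin filaments of cardiac muscle grow at their pointed ends.

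The promoters of 9 of the 10 genes were matched in a RefSeq table of build GRCm38.p6, as windows of 300 bases that run from 250 bases before to 50 bases after the annotated start. Tnni2 had no entry there. The promoters are shown because regulators of muscle genes are known to bind short motifs in them: serum response factor at the CArG box and TEAD factors at the M-CAT motif (CATTCC). Both strands were searched, also for the TATA box (TATAAA), the GATA site (AGATAA), the E-box (CANNTG) and the MEF2 site. A CArG box was found in the windows of both actins and in 1.63% of 32851 windows of the same length. An M-CAT motif was found for Tnnt2, Tnnc1, Tpm1 and Acta1, and in 14.7% of all windows. A TATA box was found for Tnnt1, Actc1 and Acta1 and in 13.6% of all windows, and a GATA site for Tnnt2 and in 11.2%. Every matched gene had an E-box, as did 72.3% of all windows, and none had a MEF2 site (3.19%). No match overlapped another. Below, capitals mark a CArG box, an M-CAT motif (CATTCC, or GGAATG on the other strand) or a TATA box. With the annotated start counted as 0, the CArG box began at base -47 in Actc1 and at base -73 in Acta1. The TATA box began at base 33 in Actc1, past the annotated start, at base -7 in Acta1 and at base -30 in Tnnt1. All positions depend on the annotated starts, which were not checked. The Actc1 window is chr2:114052826-114053125 (minus strand), the Acta1 window chr8:123894726-123895025 (minus strand), the Tnnt2 window, of the first of its 2 starts, chr1:135836084-135836383 (plus strand), the Tnnc1 window chr14:31208062-31208361 (plus strand) and the Tpm1 window chr9:67049164-67049463 (minus strand).
Actc1: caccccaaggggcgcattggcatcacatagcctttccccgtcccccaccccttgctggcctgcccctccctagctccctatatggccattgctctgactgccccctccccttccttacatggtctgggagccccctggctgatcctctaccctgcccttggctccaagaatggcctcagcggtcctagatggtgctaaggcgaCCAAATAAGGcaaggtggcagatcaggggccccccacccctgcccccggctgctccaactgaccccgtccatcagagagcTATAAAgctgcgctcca
Acta1: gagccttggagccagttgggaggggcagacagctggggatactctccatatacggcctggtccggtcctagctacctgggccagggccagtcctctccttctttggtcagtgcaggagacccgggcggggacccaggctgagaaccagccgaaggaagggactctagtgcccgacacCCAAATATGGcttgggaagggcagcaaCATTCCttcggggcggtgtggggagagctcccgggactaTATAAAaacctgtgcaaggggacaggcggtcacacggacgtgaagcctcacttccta
Tnnt2: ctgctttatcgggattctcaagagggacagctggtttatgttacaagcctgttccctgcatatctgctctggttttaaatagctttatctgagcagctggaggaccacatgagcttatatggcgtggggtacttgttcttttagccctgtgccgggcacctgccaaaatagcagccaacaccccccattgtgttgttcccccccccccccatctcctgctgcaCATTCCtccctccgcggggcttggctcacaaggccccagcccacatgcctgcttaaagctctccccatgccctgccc
Tnnc1: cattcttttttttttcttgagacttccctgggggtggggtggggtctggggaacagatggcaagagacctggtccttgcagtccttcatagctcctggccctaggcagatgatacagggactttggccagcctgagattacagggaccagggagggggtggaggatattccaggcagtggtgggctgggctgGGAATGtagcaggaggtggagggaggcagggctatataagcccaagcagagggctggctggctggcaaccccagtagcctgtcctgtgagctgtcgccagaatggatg
Tpm1: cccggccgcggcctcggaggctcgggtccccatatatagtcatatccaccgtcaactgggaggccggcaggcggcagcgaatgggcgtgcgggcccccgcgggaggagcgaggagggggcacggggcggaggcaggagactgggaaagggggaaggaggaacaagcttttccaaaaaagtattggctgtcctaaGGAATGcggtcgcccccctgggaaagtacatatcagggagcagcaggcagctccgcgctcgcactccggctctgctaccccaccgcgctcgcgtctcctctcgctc

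Values are MAS5 signals, which are intensities on a linear scale with no unit. Array medians ran between 18.2 and 29.3, and the median of all values was 22.5. Gapdh, read at its 3' and 5' ends as a check of RNA integrity, had end ratios of 1.13 to 1.64. Precision is limited by having 2 arrays a group. Nkx2-5 ranged from 215.5 to 323.2 in GFP+ cells and from 75.5 to 105.5 in GFP- cells of days 7 and 8, and Myh6 from 7891.5 to 8122.3 in the cardiomyocytes and from 19.5 to 2920.9 on the 16 sorted arrays. Both genes' own regulatory DNA drove the sorted or selected transgene. The day 5 arrays of batch 2 stood apart: their summed signal of 6 pluripotency markers was 1613.9 in GFP+ cells and 5342.6 in GFP- cells, while batch 1 had 149.8 in GFP+ cells and 1433 in GFP- cells of that day. Calls of the 10 genes and counts over gene lists that rest on days 5 and 6 are therefore also given without both day 5 arrays of batch 2, an alternative chosen after seeing the data. The fit of every probe set, used for second probe sets, was not repeated in that way. The day 6 arrays of batch 2 were kept, although their summed signal of 9 cardiac markers was lower still. It was 668.7 in GFP+ and 487.2 in GFP- cells, against 1767.3 and 880.4 on day 5 of that batch. Leaving out day 5 alone thus does not remove the gap between batches in cardiac genes. Differences are of log2(signal + 6.8), a scale that makes changes of dim genes look smaller, with the standard error (SE) from limma fitted to all arrays. A gene is said to have passed where its Benjamini-Hochberg adjusted p over 13379 genes was under 0.05. All 10 genes entered the fit, Lmod2 only through the cardiomyocytes, since none of the 16 sorted arrays reached the median of 22.5.

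Between GFP+ and GFP- cells of days 7 and 8, 7 of the 10 genes separated by signal on every array, and none passed the test. For Tnnt2, Tnnc1, Tnni3, Tnni1, Tpm1, Actc1 and Acta1, each of the 4 GFP+ arrays had a higher signal than each of the 4 GFP- arrays, as was so for 7.96% of all genes tested. Tnnt1, Tnni2 and Lmod2 overlapped. On days 5 and 6 the fractions overlapped for all 10 genes. In the limma fit 0 of 10 passed on days 7 and 8, where 6.63% of all genes tested did (5.12% higher and 1.51% lower), and 4 had an unadjusted p under 0.05. On days 5 and 6 the counts were 0 of 10 passed, 0 with an unadjusted p under 0.05, and 0.149% of all genes (0.0523% higher and 0.0972% lower). Averaged over the 4 days they were 0 of 10, 3 of 10 and 2.68% (2.14% higher and 0.538% lower). The fit with batch as a block takes 1 common shift between batch 1 and batch 2, by label, for all sorted groups. It does not pair the fractions within a day or allow for a shift that differs by day. With this block Tnnc1, Tpm1 and Acta1 passed on days 7 and 8, where 10.7% of all genes did, and Tpm1 and Acta1 over all days, where 5.41% did. Tnnt2, Tnnc1 and Tpm1 passed on days 7 and 8 without both day 5 arrays of batch 2, as did 8.77% of the 13202 genes tested in that fit. The median difference of the 10 genes was 1.29 on days 7 and 8, beside 0.0062 over all genes tested. It was 0.17 on days 5 and 6, beside -0.025 over all genes, and 0.32 without both day 5 arrays of batch 2. Of the genes that passed on days 7 and 8, 77.2% were higher in GFP+ cells, and 66.25% were after quantile normalization.

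Over time, all 10 genes had a positive difference in GFP+ cells between days 7 and 8 and days 5 and 6, with a median of 1.84 (0.093 over all genes), or 0.95 without both day 5 arrays of batch 2. Tnni3, Tpm1 and Acta1 passed, which are 3 of 10, where 19.4% of all genes tested passed, 11.3% higher and 8.03% lower. With batch as a block 7 passed, with Tnnc1, Tnnt1, Tnni2 and Actc1 added, and 25.3% of all genes did. Without both day 5 arrays of batch 2, 0 of the 10 passed in limma (4 had an unadjusted p under 0.05), while 8.23% of the genes tested did. Of the genes that passed, 58.5% were higher on the later days, and 46.0% were after quantile normalization, which moved the median of all genes to -0.037. In GFP- cells the median of the 10 was 0.75 (-0.0060 over all genes), or 0.44 without those arrays, and the 2 that passed, where 12.5% of all genes did (7.25% higher and 5.25% lower), were Tnnt1 and Tnni2. Tnni2 alone passed without both day 5 arrays of batch 2, beside 6.8% of the genes tested. The change with time in GFP+ cells minus that in GFP- cells, which tests whether the fractions diverged, passed for 0 of 10 genes and for 0.142% of all genes tested, all of them positive. Of the 10, 1 had an unadjusted p under 0.05: Acta1, with a divergence of 2.13 ± 0.79 (SE, adjusted p = 0.283, and 0.0567 with batch as a block), or 2.01 (adjusted p = 0.49) without both day 5 arrays of batch 2. In the cardiomyocytes 9 of the 10 genes, all but Tnni2, had a higher signal on both arrays than on any of the 16 sorted arrays, as did 19.3% of all genes tested. Lmod2, one of the 9, had entered the fit through these arrays. Against GFP+ cells of days 7 and 8, 5 of 10 passed and were higher (Tnni3, Tnnt1, Tpm1, Acta1 and, by way of its entry, Lmod2), where 43.3% of all genes passed, 17.9% higher and 25.5% lower. Without Lmod2 these were 4 of 9. The median was 1.65 over the 9 and 1.68 over the 10, beside -0.13 over all genes, and quantile normalization moved the median of all genes to 0.0012. None of the 10 genes changed direction under quantile normalization in any of the 7 comparisons. Without both day 5 arrays of batch 2, which enter this comparison through the shared estimate of the spread alone, 7 of 10 passed (6 of 9 without Lmod2), with Tnnc1 and Tnni1 added, beside 46.2% of the genes tested.

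**Figure D1:**
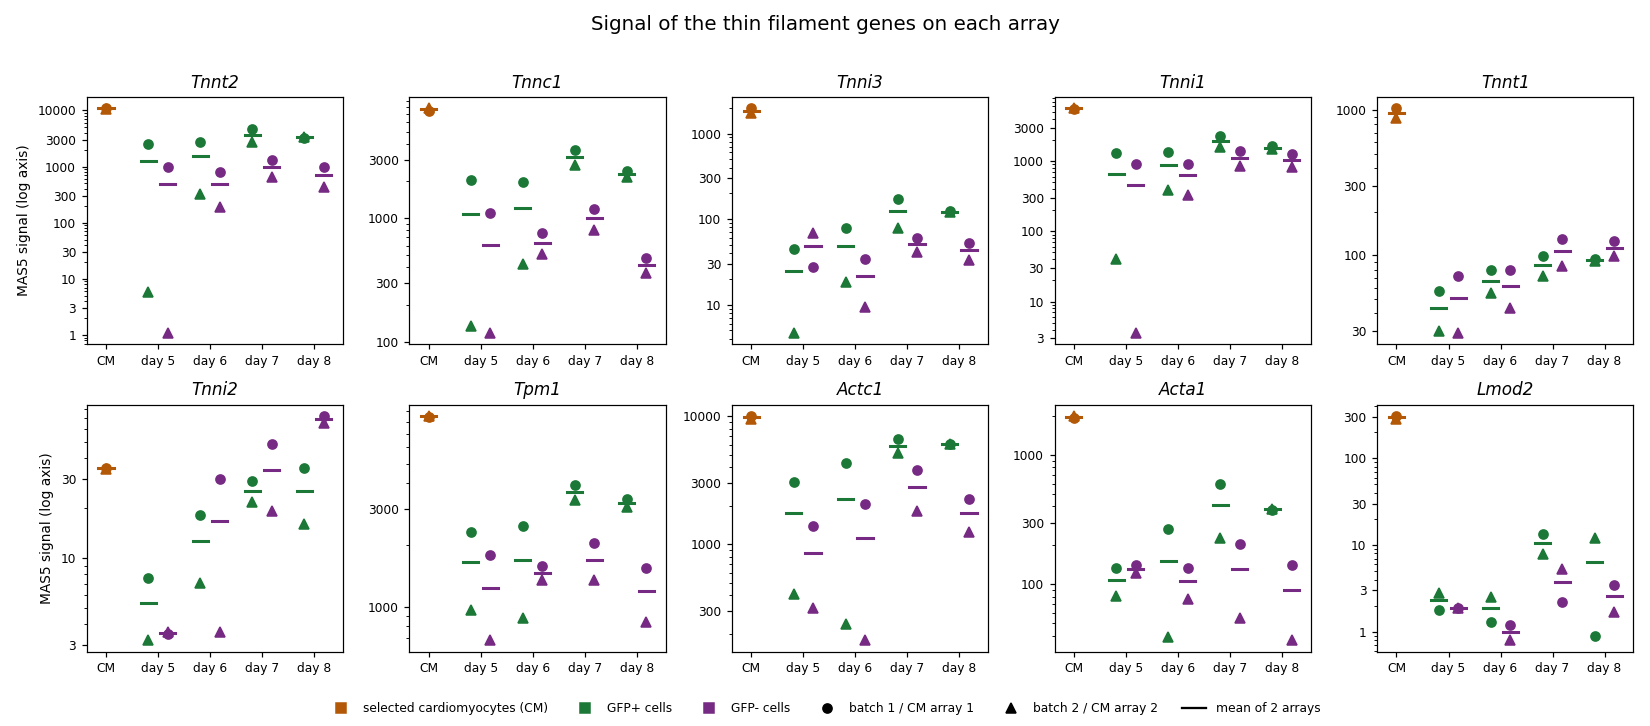
MAS5 signal (log axis) of each of the 10 genes, 1 probe set a gene, for the selected cardiomyocytes (CM) and for GFP+ and GFP- cells of days 5 to 8. Points are arrays, shaped by batch, and lines are means of 2 arrays. The cardiomyocytes lie above all sorted arrays for every gene but Tnni2, and in GFP+ cells the 2 batches lie closer together on day 8 than on day 5 for Tnnt2, Tnnc1, Tnni1 and Actc1.

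**Figure D2:**
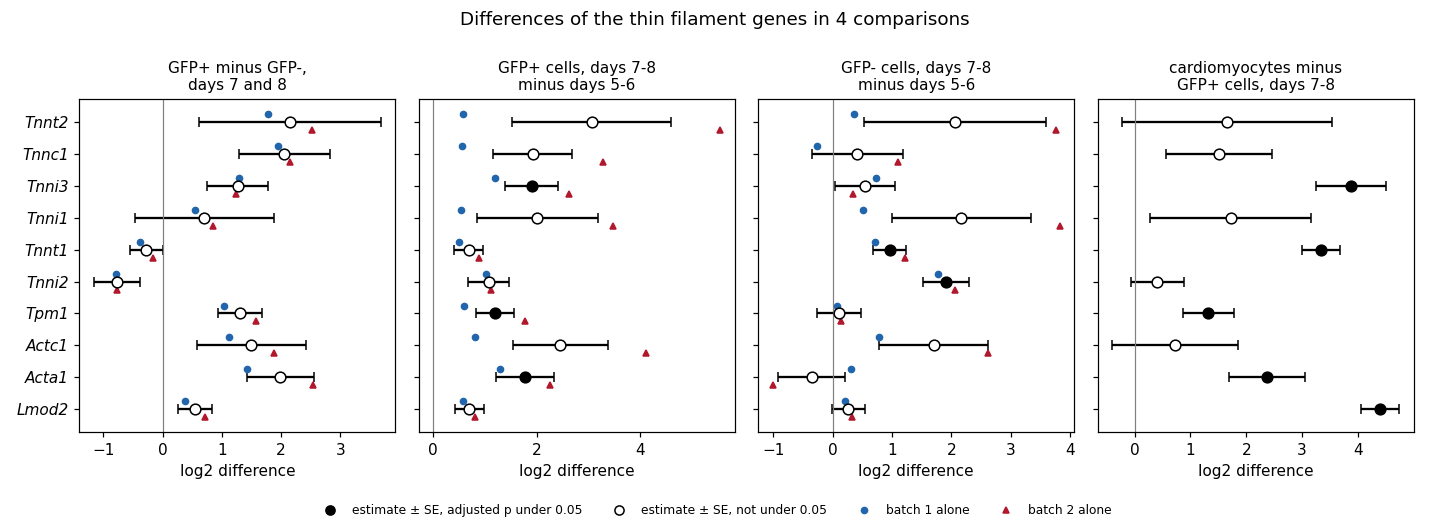
Difference of each gene (log2 scale, horizontal axis) in 4 comparisons. Black points are limma estimates with SE bars, filled where the adjusted p was under 0.05, and small coloured marks are the values within each batch. The 7 genes whose late fractions did not overlap all lie to the right of 0 in the left panel, Tnnt1 and Tnni2 lie to its left, and 5 of the 10 points are filled in the cardiomyocyte panel.

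Tnnt2, the cardiac troponin T, had signals of 10975.1 and 10737.3 on the cardiomyocyte arrays. The GFP+ arrays of batch 1 and batch 2 had 2482.3 and 5.9 on day 5, 2733.3 and 327.9 on day 6, 4624.9 and 2777.3 on day 7, and 3278.2 and 3375.3 on day 8. The GFP- arrays of these batches had 963.6 and 1.1 on day 5, 799.6 and 189.8 on day 6, 1315.7 and 642.1 on day 7, and 975.7 and 432.9 on day 8. Within each day and batch GFP+ cells were the higher ones, in 8 of 8 pairs, although both arrays of the day 5 pair of batch 2 lay below the median signal. On days 5 and 6 batch 2 lay far below batch 1 in both fractions, and on days 7 and 8 every GFP+ array lay above every GFP- array. The GFP+ minus GFP- difference of days 7 and 8 was 2.15 ± 1.54 (SE, limma adjusted p = 0.422), with 1.77 within batch 1 and 2.52 within batch 2. It passed without both day 5 arrays of batch 2 (adjusted p = 0.0468, limma), and the estimate itself does not involve those arrays. The change with time in GFP+ cells was 3.07 ± 1.54 (adjusted p = 0.176), with 0.58 within batch 1 and 5.56 within batch 2. Without the day 5 GFP+ array of batch 1 it was 4.97 (adjusted p = 0.0161), and without that of batch 2 it was 1.16 (adjusted p = 0.594). With both day 5 arrays of batch 2 left out, 1.16 had an adjusted p of 0.271. Cardiomyocytes minus GFP+ cells of days 7 and 8 gave 1.65 ± 1.88 (adjusted p = 0.513), although the lowest cardiomyocyte signal was 2.32 times the highest sorted one.

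A second probe set of Tnnt2, 1424967_x_at, followed the first, with 10586.5 and 10508.3 in cardiomyocytes and a range of 3.9 to 4299.9 over the sorted arrays. It was higher in GFP+ cells in 7 of 8 pairs, the exception being the day 5 pair of batch 2, with 3.9 in GFP+ cells and 6.1 in GFP- cells. The last one, 1440424_at, was dim, with 63.5 and 83.2 in cardiomyocytes and a range of 4 to 43.3 over the sorted arrays, and was higher in GFP+ cells in 6 of 8 pairs. In a fit of every probe set, where 16.9% passed for the change with time in GFP+ cells and 41.9% for the cardiomyocyte comparison, this dim probe set passed in both. Its change in GFP+ cells was 1.07 ± 0.28 (adjusted p = 0.0231), and it was higher in cardiomyocytes than in late GFP+ cells by 1.10 ± 0.35 (adjusted p = 0.0206).

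Tnnc1, the troponin C of heart and slow muscle, had 7471.2 and 7833.6 in cardiomyocytes. GFP+ cells had, in batch 1 and batch 2, 2030 and 134.2 on day 5, 1984.5 and 429.4 on day 6, 3582.3 and 2695.9 on day 7, and 2429.1 and 2184.8 on day 8. GFP- cells of the same batches had 1103.6 and 118.1 on day 5, 754.8 and 517.8 on day 6, 1199.8 and 802.1 on day 7, and 477.7 and 362.2 on day 8. Day 8 GFP- cells were the lowest group by mean, and day 8 GFP+ cells stood next after cardiomyocytes and day 7 GFP+ cells. On days 7 and 8 the fractions differed by 2.05 ± 0.77 (SE, limma adjusted p = 0.128). With batch as a block the adjusted p was 0.0325, and it was 0.00601 without both day 5 arrays of batch 2. Leaving out the day 5 GFP+ array of batch 1 or batch 2 also put it past the threshold, at 0.0463 and 0.0468. Averaged over all days the difference was 1.30 ± 0.54 (adjusted p = 0.223), and 1.78 (adjusted p = 0.0377) without the day 5 GFP+ array of batch 2. It was 0.82 (adjusted p = 0.34) without that of batch 1, and 1.39 (adjusted p = 0.0222) without both day 5 arrays of batch 2. In GFP+ cells the change with time was 1.92 ± 0.77 (adjusted p = 0.0948, and 0.0218 with batch as a block), and without the day 5 GFP+ array of batch 1 it was 2.89 (adjusted p = 0.00862). Without that of batch 2 it was 0.96 (adjusted p = 0.352), and without both day 5 arrays of batch 2 the adjusted p was 0.142.

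Tnni3, the troponin I of the mature heart, had 1977.1 and 1730 in cardiomyocytes. Its signals in GFP+ cells, batch 1 and batch 2, were 45.2 and 4.7 on day 5, 79.5 and 18.4 on day 6, 172.5 and 78.7 on day 7, and 123.5 and 121.5 on day 8. Its signals in GFP- cells were 27.7 and 68.5 on day 5, 34.1 and 9.3 on day 6, 59.4 and 41.6 on day 7, and 52.3 and 33.6 on day 8. Day 7 and day 8 GFP+ arrays were the highest of the sorted ones but for the batch 1 array of day 6, which lay above the batch 2 array of day 7. In GFP+ cells Tnni3 rose by 1.91 ± 0.51 between the early and the late days (SE, limma adjusted p = 0.0229). The difference had the same sign in both batches, 1.19 in batch 1 and 2.62 in batch 2. The call was lost, at adjusted p between 0.0621 and 0.111, without any 1 of 5 GFP+ arrays: day 7 or day 8 of batch 1, or day 5, day 6 or day 8 of batch 2. Without both day 5 arrays of batch 2 it was 1.36 (adjusted p = 0.0767). Cardiomyocytes exceeded late GFP+ cells by 3.87 ± 0.62 (adjusted p = 3.21e-04), and this held without each of the 18 arrays in turn, at adjusted p between 9.41e-05 and 0.00705. The lowest cardiomyocyte signal was 10.0 times the highest sorted one.

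Tnni1, the slow skeletal troponin I and the form of the embryonic heart, had 5603.2 and 5664.8 in cardiomyocytes. In GFP+ cells it had, in batch 1 and batch 2, 1289.4 and 40.4 on day 5, 1348.1 and 382.3 on day 6, 2272 and 1564.9 on day 7, and 1633.6 and 1463 on day 8. In GFP- cells it had 911.7 and 3.6 on day 5, 922.3 and 333.1 on day 6, 1378 and 839.8 on day 7, and 1245.8 and 832.4 on day 8. GFP+ cells were higher in 8 of 8 pairs, and on days 7 and 8 the lowest GFP+ array lay close above the highest GFP- array. The late difference between the fractions was 0.70 ± 1.17 (SE, limma adjusted p = 0.761). Cardiomyocytes minus late GFP+ cells gave 1.72 ± 1.43 (adjusted p = 0.363, and 0.0105 without both day 5 arrays of batch 2). In GFP- cells the change with time was 2.17 ± 1.17 (adjusted p = 0.242), with 0.51 within batch 1 and 3.83 within batch 2, and without the day 5 GFP- array of batch 1 it was 3.78 (adjusted p = 0.0178). Without that of batch 2 it was 0.55 (adjusted p = 0.761), and without both day 5 arrays of batch 2 the adjusted p was 0.472.

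Tnnt1, the slow skeletal troponin T, had 1032.4 and 883.4 in cardiomyocytes. The GFP+ arrays of batch 1 and batch 2 had 56.6 and 30.1 on day 5, 79 and 55.1 on day 6, 99.4 and 72 on day 7, and 94.2 and 91.3 on day 8. The GFP- arrays of these batches had 72.4 and 29.4 on day 5, 79.3 and 43.4 on day 6, 130.6 and 85.2 on day 7, and 126.4 and 98.9 on day 8. The sorted groups overlapped from one rank to the next by mean, and only 2 of 8 pairs were higher in GFP+ cells. In GFP- cells each late array lay above each early one, as was so for 6.85% of all genes tested, and Tnnt1 rose by 0.96 ± 0.28 (SE, limma adjusted p = 0.0422). This call was lost without 11 of the 18 arrays in turn, at adjusted p between 0.052 and 0.175: the GFP- arrays of days 7 and 8 of batch 1 and of days 5, 6 and 8 of batch 2, the 4 late GFP+ arrays and both cardiomyocyte arrays. It was also lost without both day 5 arrays of batch 2 (0.68, adjusted p = 0.116). In GFP+ cells the change was 0.68 ± 0.28 (adjusted p = 0.103, and 0.0139 with batch as a block), and 0.49 (adjusted p = 0.207) without both day 5 arrays of batch 2. Cardiomyocytes exceeded late GFP+ cells by 3.33 ± 0.34 (adjusted p = 1.22e-05), which held without each array in turn.

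Tnni2, the fast skeletal troponin I, was dim: 8 of 18 arrays reached the median signal of 22.5. It had 35.2 and 34.6 in cardiomyocytes. GFP+ cells had, in batch 1 and batch 2, 7.6 and 3.2 on day 5, 18.3 and 7.1 on day 6, 29.1 and 21.9 on day 7, and 34.8 and 16 on day 8. GFP- cells of the same batches had 3.5 and 3.6 on day 5, 30 and 3.6 on day 6, 48.6 and 19.3 on day 7, and 72.4 and 65.7 on day 8. Day 8 GFP- cells were the highest group, with both arrays above every other array of the series. In GFP- cells Tnni2 rose by 1.92 ± 0.39 (SE, limma adjusted p = 0.0108), with 1.77 within batch 1 and 2.06 within batch 2. The call was lost without the day 7 GFP- array of batch 1 (1.64, adjusted p = 0.0546), and it held without both day 5 arrays of batch 2. In GFP+ cells the change was 1.07 ± 0.39 (adjusted p = 0.0681, and 0.0164 with batch as a block), or 0.94 (adjusted p = 0.193) without both day 5 arrays of batch 2. The difference between these changes was not past the threshold (-0.85 ± 0.55, adjusted p = 0.554). On days 7 and 8 GFP+ cells minus GFP- cells gave -0.77 ± 0.39 (adjusted p = 0.246). A second probe set, 1438609_x_at, had 7 and 27.2 in cardiomyocytes and, with -1.50 ± 0.42 between late GFP+ and GFP- cells, an adjusted p of 0.0601 in the fit of every probe set, where 4.81% passed. In GFP- cells it rose with time by 1.95 ± 0.42 (adjusted p = 0.0154, beside 8.81% passed). The last one, 1438608_at, stayed at or under 5.6 on all arrays and was not tested.

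Tpm1, the alpha tropomyosin, had 8442.3 and 8568.7 in cardiomyocytes on the probe set with the highest mean, 1423049_a_at. Its signals in GFP+ cells, batch 1 and batch 2, were 2322.5 and 963 on day 5, 2489.6 and 882.6 on day 6, 3950.2 and 3313.7 on day 7, and 3356.2 and 3076.6 on day 8. Its signals in GFP- cells were 1792.4 and 684.3 on day 5, 1575.3 and 1343.4 on day 6, 2047.1 and 1342.5 on day 7, and 1537.1 and 839.1 on day 8. The late GFP+ arrays stood apart from all other sorted arrays, and the GFP- arrays of the early and late days overlapped. On days 7 and 8 the fractions differed by 1.31 ± 0.37 (SE, limma adjusted p = 0.0531), which passed with batch as a block (adjusted p = 0.00348) and without both day 5 arrays of batch 2 (adjusted p = 0.0178). It also passed, at adjusted p between 0.0341 and 0.0375, without any 1 of 7 arrays: the 4 arrays of day 5, the day 6 GFP+ array of either batch, or the day 8 GFP- array of batch 1. Over all days the difference was 0.77 ± 0.26 (adjusted p = 0.14, and 0.0131 with batch as a block), or 0.75 (adjusted p = 0.103) without both day 5 arrays of batch 2. In GFP+ cells Tpm1 rose by 1.19 ± 0.37 (adjusted p = 0.0411), a call lost without 10 of the 18 arrays in turn, at adjusted p between 0.0503 and 0.184. These were 6 GFP+ arrays (days 7 and 8 of batch 1 and all 4 of batch 2), both day 6 GFP- arrays and both cardiomyocyte arrays. It was also lost without both day 5 arrays of batch 2 (0.87, adjusted p = 0.0996). Cardiomyocytes exceeded late GFP+ cells by 1.32 ± 0.46 (adjusted p = 0.0325). That call was lost without either cardiomyocyte array (adjusted p = 0.132 and 0.138), the day 8 GFP+ array of batch 1 (0.058) or batch 2 (0.069), or the day 7 GFP+ array of batch 2 (0.0745). It was also lost against day 8 GFP+ cells alone (adjusted p = 0.0536).

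The other 3 Tpm1 probe sets are given in turn. For 1423721_at cardiomyocytes had 4559.6 and 4815.3, while the sorted arrays lay between 678.9 and 1395.4. Its late GFP+ minus GFP- difference was -0.18 ± 0.21 (SE, limma adjusted p = 0.662). In GFP+ cells its change with time was -0.34 ± 0.21 (adjusted p = 0.293), opposite in sign to that of 1423049_a_at. Cardiomyocytes were higher on it than late GFP+ cells by 2.56 ± 0.26 (adjusted p = 9.41e-06). For 1447713_at cardiomyocytes had 243 and 265.1, and the sorted arrays lay between 0.9 and 56.7. It moved as 1423049_a_at did in GFP+ cells, where it rose by 1.23 ± 0.37 (adjusted p = 0.0384), and in the cardiomyocytes, where it was higher by 2.46 ± 0.46 (adjusted p = 8.1e-04). The last, 1456623_at, had 610.1 and 719.1 in cardiomyocytes and lay between 192.3 and 523 on the sorted arrays, and it passed in none of the 7 comparisons. In that fit of every probe set 1.79% of all probe sets passed over the 4 days, 0.0592% on days 5 and 6, and 0.108% for the divergence. The gene makes several transcripts by alternative splicing and alternative ends, and which of them each probe set reads was not looked up here. With the mean of the 4 probe sets, the change of Tpm1 in GFP+ cells was 0.58 (adjusted p = 0.094).

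**Figure D3:**
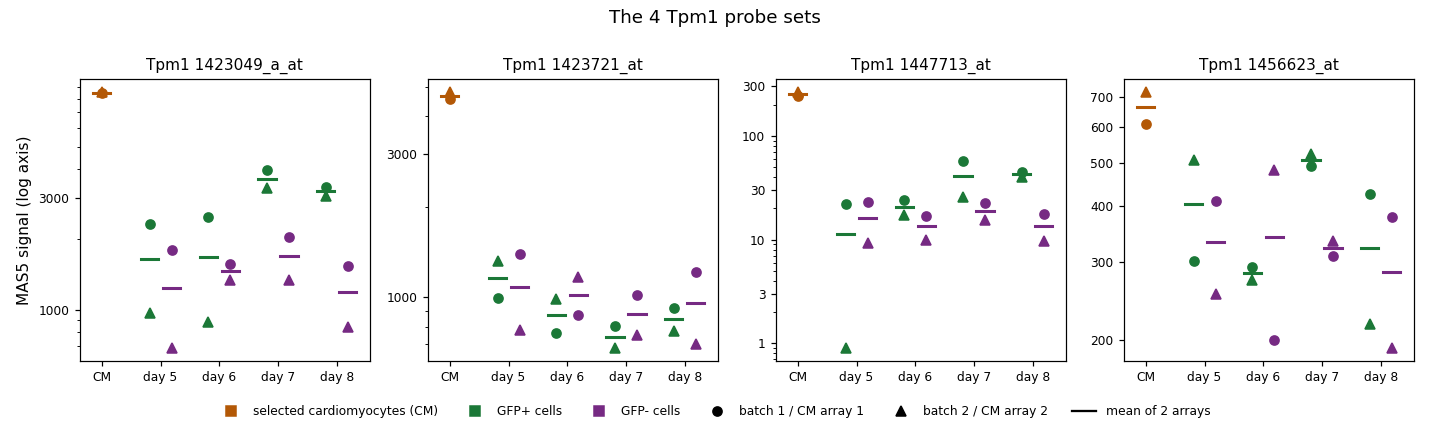
MAS5 signal (log axis) of the 4 Tpm1 probe sets in the selected cardiomyocytes (CM) and in GFP+ and GFP- cells of days 5 to 8. Points are arrays and lines are means of 2 arrays. On 1423049_a_at the late GFP+ arrays stand apart from the other sorted arrays, and on 1423721_at, between 678.9 and 1395.4, they do not.

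Actc1, the cardiac alpha actin, had 10081.4 and 9551.8 in cardiomyocytes. In GFP+ cells it had, in batch 1 and batch 2, 3062.2 and 411.8 on day 5, 4280.2 and 239.6 on day 6, 6663.9 and 5119.7 on day 7, and 6079.9 and 6012.6 on day 8. In GFP- cells it had 1398.7 and 318.7 on day 5, 2045.6 and 177.6 on day 6, 3792.9 and 1815.6 on day 7, and 2251.3 and 1244.6 on day 8. It was higher in GFP+ cells in 8 of 8 pairs, and on days 5 and 6 both fractions of batch 2 lay below both fractions of batch 1. The change with time in GFP+ cells was 2.46 ± 0.92 (SE, limma adjusted p = 0.0757), with 0.81 within batch 1 and 4.11 within batch 2. It passed with batch as a block (adjusted p = 0.00821), and without the GFP+ array of batch 1 of day 5 (0.0305) or of day 6 (0.0143). The change was 1.43 (adjusted p = 0.318) without the day 6 GFP+ array of batch 2 and 1.74 (adjusted p = 0.256) without that of day 5. Its adjusted p without both day 5 arrays of batch 2 was 0.231. On days 7 and 8 the fractions differed by 1.50 ± 0.92 (adjusted p = 0.344). Cardiomyocytes minus late GFP+ cells gave 0.72 ± 1.13 (adjusted p = 0.64), and the lowest cardiomyocyte signal was 1.43 times the highest sorted one.

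Acta1, the skeletal alpha actin, had 1916 and 2010 in cardiomyocytes. The GFP+ arrays of batch 1 and batch 2 had 133.3 and 81.3 on day 5, 265.8 and 38.8 on day 6, 592.5 and 227.6 on day 7, and 378.1 and 381.6 on day 8. The GFP- arrays of these batches had 140.4 and 123.1 on day 5, 134.4 and 76.6 on day 6, 206 and 54.3 on day 7, and 141.9 and 36.8 on day 8. It was higher in GFP+ cells in 1 of 4 early pairs and in 4 of 4 late pairs. On days 7 and 8 the fractions differed by 1.99 ± 0.56 (SE, limma adjusted p = 0.0522, and 0.00456 with batch as a block), with 1.43 within batch 1 and 2.55 within batch 2. It passed, at adjusted p between 0.025 and 0.0479, without any 1 of 5 arrays: the day 6 GFP+ array of either batch, the GFP- array of day 7 or day 8 of batch 1, or the day 7 GFP+ array of batch 2. Without both day 5 arrays of batch 2 it did not pass (adjusted p = 0.0565, limma). Over all days the difference was 0.93 ± 0.40 (adjusted p = 0.234, and 0.0485 with batch as a block), or 0.99 (adjusted p = 0.297) without both day 5 arrays of batch 2. In GFP+ cells Acta1 rose by 1.77 ± 0.56 (adjusted p = 0.0428), a call lost without 9 of the 18 arrays in turn, at adjusted p between 0.05 and 0.189. These were 5 GFP+ arrays (days 7 and 8 of batch 1 and days 5, 6 and 8 of batch 2), both day 6 GFP- arrays and both cardiomyocyte arrays. It was also lost without both day 5 arrays of batch 2 (1.61, adjusted p = 0.134). Cardiomyocytes exceeded late GFP+ cells by 2.37 ± 0.69 (adjusted p = 0.0138), and without either cardiomyocyte array the adjusted p was 0.0747 or 0.0838.

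Lmod2 had 309.1 and 283.3 in cardiomyocytes. On the sorted arrays it lay below the median signal throughout, with 13.5 and 7.9 in GFP+ cells of day 7, 0.9 and 12 in GFP+ cells of day 8, and between 1.3 and 2.8 in GFP+ cells of days 5 and 6. GFP- cells of all days lay between 0.8 and 5.3. The cardiomyocytes were the one group with a signal above the median. The difference from late GFP+ cells was 4.39 ± 0.34 (SE, limma adjusted p = 1.7e-06), and since the gene entered the fit through the cardiomyocytes alone it had to differ. Of the other lengtheners and cappers of the thin filament, the pointed-end cap Tmod1 rose in GFP+ cells by 2.06 ± 0.59 (adjusted p = 0.0291) and in GFP- cells by 2.35 ± 0.59 (adjusted p = 0.0235). Both calls were lost without both day 5 arrays of batch 2, at 1.65 (adjusted p = 0.107) in GFP+ and 2.08 (adjusted p = 0.064) in GFP- cells.

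The isoforms were set against each other as log2 ratios within an array. Levels of different probe sets cannot be compared, so only changes of a ratio between groups are given. Of 16 exact permutation tests of 4 ratios in 4 comparisons, none had an adjusted p under 0.05. The ratio of Tnnt1, the slow, to Tnnt2, the cardiac troponin T, was lower in GFP+ than in GFP- cells in 8 of 8 pairs, by a mean difference of -1.78. The exact two-sided sign-flip permutation p was 0.00781, the smallest that 8 pairs can give, and 0.125 after adjustment over the 16 tests. In 1 of these pairs, day 5 of batch 2, Tnnt2 lay below the median signal in both fractions, at 5.9 in GFP+ cells and 1.1 in GFP- cells, and its second probe set had the opposite order there. Over the other 7 pairs the exact permutation p was 0.0156, the smallest that 7 pairs can give, and 0.119 after adjustment. The ratio of Tnni2, the fast, to Tnni1, the slow troponin I, was lower in GFP+ cells in 7 of 8 pairs, with a mean difference of -1.13 (exact permutation p = 0.0234, adjusted 0.152). The ratio of Tnni3 to Tnni1 was higher in GFP+ cells in 6 of 8 pairs, yet its mean difference was -0.19 (exact permutation p = 0.992). The pair of day 5 of batch 2, where Tnni1 was at 40.4 in GFP+ cells and 3.6 in GFP- cells, set that sign: without either of these arrays, and so without the pair, the mean was 0.48. The ratio of Acta1 to Actc1 gave -0.20 between the fractions (exact permutation p = 0.508). In GFP- cells it was lower on the late days by -2.06 (exact permutation p = 0.0286, the smallest that 4 against 4 arrays can give, adjusted 0.152). That test did not take batch into account, and most of the change lay in batch 2. Over days 5, 6, 7 and 8 this ratio in GFP- cells was -3.26, -3.86, -4.16 and -3.92 in batch 1. In batch 2 it was -1.33, -1.14, -4.90 and -4.84. The lowest adjusted p of the 16 was 0.119 without both day 5 arrays of batch 2. The difference between the fractions was then -1.94 for Tnnt1 over Tnnt2 (lower in 7 of 7 pairs), -0.97 for Tnni2 over Tnni1 and -0.092 for Acta1 over Actc1. Acta1 over Actc1 in GFP- cells then changed with time by -1.70, with the day 6 array of batch 2 still included.

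Between cardiomyocytes and late GFP+ cells, all 4 ratios separated the 2 cardiomyocyte arrays from the 4 GFP+ arrays. The exact two-sided permutation p was 0.0667 for each, the smallest that 2 against 4 arrays can give, and 0.152 after adjustment, so this design cannot pass the threshold. Tnni3 over Tnni1 was higher in cardiomyocytes by 2.16, Tnnt1 over Tnnt2 by 1.68 and Acta1 over Actc1 by 1.65, while Tnni2 over Tnni1 was lower there, at -1.31. For the brightest probe sets the scale has an upper end: the highest signal of any probe set on any array was 13341.1, and Tnnt2 and Actc1 reached 10975.1 and 10081.4. Whether their range was compressed was not tested.

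**Figure D4:**
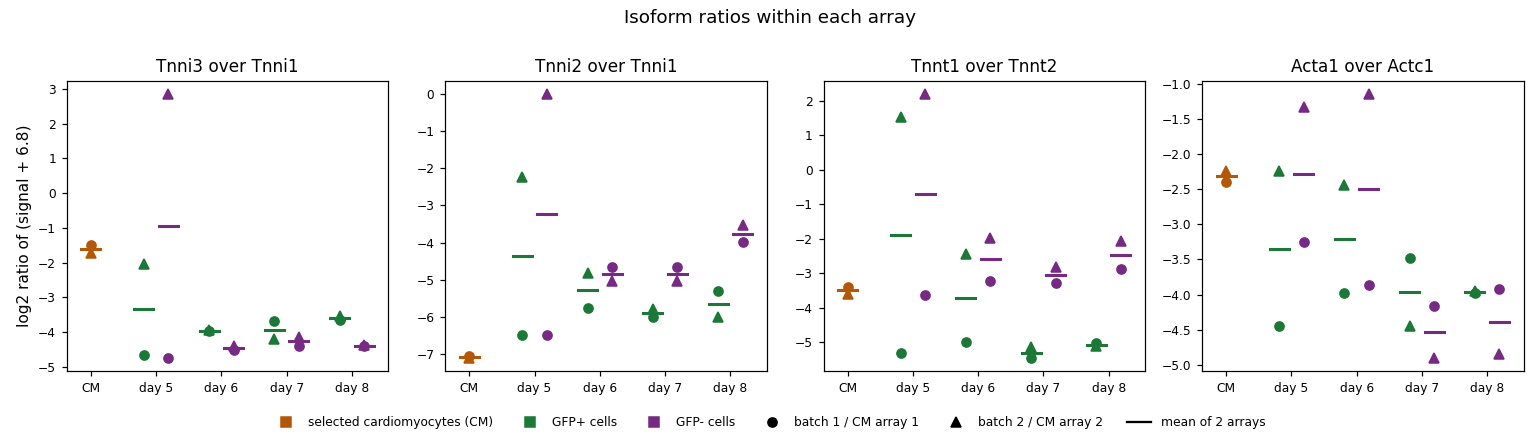
Log2 ratio of 2 isoforms within each array (vertical axis, signal + 6.8 in both) for the selected cardiomyocytes (CM) and for GFP+ and GFP- cells of days 5 to 8. Points are arrays and lines are means of 2 arrays; the height of a ratio depends on the probe sets, so only differences between groups can be read. Tnnt1 over Tnnt2 is lower in GFP+ than in GFP- cells in all 8 pairs, of which the day 5 pair of batch 2 has Tnnt2 below the median signal, and the day 5 points of batch 2 lie above the other sorted arrays in the first 3 panels.

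Markers of other cell types moved with the fractions, the days and the selection, and their part in the thin filament results was not tested. In RNA of a bulk sample, fewer cells of a type and less RNA per cell cannot be told apart. Of 15 skeletal muscle markers 13 lay below the median signal on all cardiomyocyte arrays, 12 on all late GFP+ arrays and 13 on all late GFP- arrays. Myod1 stayed at or under 18.4 and Myog, like Myod1 a master regulator of skeletal muscle, at or under 12.3 on all arrays, and neither was tested. The summed signal of the 6 smooth muscle markers was 17773.8 to 18571.5 in cardiomyocytes, against 5083.4 to 6898.8 in late GFP+ cells, and 3821.3 to 6159.5 in late GFP- cells. Among these, the enteric smooth muscle actin Actg2 had 893.8 and 893.9 in cardiomyocytes and at most 35.7 on any sorted array. Most of the smooth muscle sum came from 1 gene, the actin Acta2. It had 10267 to 10885.9 in cardiomyocytes, 4313 to 6046.7 in late GFP+ cells and 3493.6 to 5306.3 in late GFP- cells. The rise of the sum was not that of Acta2 alone. Tagln had 5730.6 to 5904.5 in cardiomyocytes and at most 688 on any sorted array, and Cnn1 had 723.5 to 738.9 and at most 150.8. Against late GFP+ cells 4 of the 6 smooth muscle markers passed and were higher in cardiomyocytes, beside 17.9% of all genes. The 6 fibroblast markers summed to 22230.2 to 22321.1 in cardiomyocytes, 2051.4 to 2736.8 in late GFP+ cells and 3336.1 to 19840.8 in late GFP- cells. The 8 endothelial markers summed to 230.1 and 263 in cardiomyocytes, 3286.2 to 5110.9 in late GFP+ cells and 785.6 to 1409.2 in late GFP- cells. The 8 endoderm markers summed to 319.1 and 397.9 in cardiomyocytes, 4937.5 to 14606.1 in late GFP+ cells and 1368.9 to 3782 in late GFP- cells. The 6 blood markers summed to 181 and 211.2 in cardiomyocytes, 10273.3 to 12001.1 in late GFP+ cells and 13843.1 to 17916.4 in late GFP- cells. The 9 cardiac markers summed to 37384.4 to 38153.8 in cardiomyocytes, 7423.8 to 12899 in late GFP+ cells and 1100.4 to 3959.3 in late GFP- cells. Nkx2-5 and Myh6, whose regulatory DNA drove the sorted or selected transgene, are among these 9. In GFP+ cells, between the early and the late days, 5 of 8 endoderm markers, 3 of 8 endothelial, 2 of 6 blood, 1 of 6 pluripotency and 6 of 9 cardiac markers rose, and 0 of 6 fibroblast, 0 of 6 smooth muscle and 0 of the 2 tested skeletal muscle markers passed. Of all genes tested 11.3% were called higher and 8.03% lower in that comparison. In GFP- cells, where 7.25% of all genes were called higher and 5.25% lower, all 6 fibroblast markers and 3 of 6 blood markers rose. There 2 of 8 endoderm, 1 of 8 endothelial, 2 of 6 pluripotency and 1 of the 2 tested skeletal muscle markers fell, and 0 of 9 cardiac and 0 of 6 smooth muscle markers passed. With both day 5 arrays of batch 2 left out, 6 of 8 endoderm and 1 of 8 endothelial markers rose in GFP+ cells, and none of the other lists had a marker that passed there. In GFP- cells 5 of 6 fibroblast and 4 of 6 blood markers then rose, and 1 endoderm, 2 endothelial, 1 pluripotency and 1 skeletal muscle marker fell. With those arrays left out, 8.23% of the genes tested passed in GFP+ cells and 6.8% in GFP- cells. The fibroblast sum on days 5 and 6 was 89.5 to 2284 in GFP+ cells and 98.2 to 3916.2 in GFP- cells, and the endoderm sum was 167.8 to 4299.4 in GFP+ cells and 1386.6 to 3458.8 in GFP- cells. The blood sum on those days was 247 to 8652.2 in GFP+ cells and 236.6 to 12760 in GFP- cells.

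The other genes of the thin filament and of actin turnover were counted in the same fit. Of 24 listed neighbours 20 were tested. On days 7 and 8, 3 passed higher in GFP+ cells: the formin Fhod3, which assembles cardiac actin (2.00 ± 0.34, SE, limma adjusted p = 0.00615), the Z-disc cross-linker Actn2 (1.94 ± 0.54, adjusted p = 0.0494) and Cap2, which takes part in actin turnover (0.55 ± 0.14, adjusted p = 0.034). The capping protein subunit Capza2 was lower, at -0.37 ± 0.09 (adjusted p = 0.0324). Of all genes tested 5.12% were called higher and 1.51% lower on these days. Cap2 was the one that passed on days 5 and 6 (0.81 ± 0.14, adjusted p = 0.0419), and it did not without both day 5 arrays of batch 2 (0.63, adjusted p = 0.257). In GFP+ cells, where 11.3% of all genes were called higher, Actn2 (2.38 ± 0.54, adjusted p = 0.0121), Fhod3 and Tmod1 rose with time. In GFP- cells, where 7.25% were called higher and 5.25% lower, Tmod1 and Capza1 rose while Actn3 and Tmod2 fell. Of these calls over time, Actn3 in GFP- cells was the one left without both day 5 arrays of batch 2 (-1.02, adjusted p = 0.0328), and Actn2 in GFP+ cells was then at 2.10 (adjusted p = 0.0544). Against late GFP+ cells 17.9% of all genes were called higher in the cardiomyocytes and 25.5% lower. Of the neighbours 12 were higher there and 1 was lower, with a median of 1.01 over the 20. Among them, Cap2 was higher by 1.94 ± 0.17 (adjusted p = 3.49e-06), the beta tropomyosin Tpm2 by 2.92 ± 0.31 (adjusted p = 1.43e-05) and the muscle cofilin Cfl2 by 1.79 ± 0.24 (adjusted p = 8.33e-05). The tropomodulin Tmod3 was lower, at -0.99 ± 0.15 (adjusted p = 2e-04). Of the 4 other listed actins (Acta2, Actg2, Actb and Actg1), 0 passed between the fractions or over time, and Actg2 passed in the cardiomyocytes (5.28 ± 0.38, adjusted p = 8.27e-07).

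The thick filament, which the thin filament slides along, was counted in the same fit over 11 genes. Between the fractions on days 7 and 8, 0 of 11 passed, where 6.63% of all genes did. With batch as a block 7 passed, where 10.7% of all genes did. Without both day 5 arrays of batch 2, 4 passed and were higher in GFP+ cells, beside 8.77% of the genes tested. These were Myl2, Myl3, Myh7 and Ttn, at limma adjusted p between 0.022 and 0.0383. In the main fit the lowest p belonged to the atrial light chain Myl7 (1.72 ± 0.51, limma adjusted p = 0.06) and the ventricular light chain Myl2 (3.36 ± 1.03, adjusted p = 0.0678). In GFP+ cells 8 of 11 rose with time, where 11.3% of all genes were called higher, among them Ttn (3.69 ± 1.06, adjusted p = 0.0298), Myl2 (3.70 ± 1.03, adjusted p = 0.0267) and Myom1 (2.50 ± 0.60, adjusted p = 0.015). In GFP- cells 2 rose, Myh7b and Myom1, where 7.25% of all genes were called higher. Of these calls over time, Myom1 in GFP+ cells was the one left without both day 5 arrays of batch 2 (1.97, adjusted p = 0.0405). In GFP+ cells Ttn was then at 2.57 (adjusted p = 0.0959) and Myl2 at 2.51 (adjusted p = 0.0837). Against late GFP+ cells the cardiomyocytes had 3 higher (Myom2, Mybpc3 and Myom1) and 1 lower, Myh7b (-2.52 ± 0.58, adjusted p = 0.00365). Of all genes 17.9% were called higher there and 25.5% lower. Without both day 5 arrays of batch 2, 5 of the 11 were higher and 1 lower, beside 46.2% of the genes tested that passed. Of 15 transcription factors of muscle genes, 4 were higher in late GFP+ than GFP- cells, beside 5.12% of all genes: Nkx2-5 (1.60 ± 0.36, adjusted p = 0.0237), Gata4 (1.38 ± 0.31, adjusted p = 0.0226), Mrtfb and Mef2d. The sort was on GFP driven by an Nkx2-5 enhancer, so Nkx2-5 is no independent member of this count. Without both day 5 arrays of batch 2, 6 of the 15 were higher, beside 8.77% of the genes tested that passed. Added were Myocd (2.07, limma adjusted p = 0.00439) and Tead1 (0.76, adjusted p = 0.0306). Srf, which encodes the factor that binds the CArG box, fell with time in both fractions, by 0.58 in GFP+ cells (-0.58 ± 0.14, adjusted p = 0.015) and by 0.54 in GFP- cells (adjusted p = 0.0269). These calls were lost without both day 5 arrays of batch 2, at -0.56 (adjusted p = 0.0581) in GFP+ and -0.51 (adjusted p = 0.0908) in GFP- cells. Srf was higher in cardiomyocytes than in late GFP+ cells by 0.74 ± 0.17 (adjusted p = 0.0038), as were Tead1, of the M-CAT binding family, by 1.06 ± 0.27 (adjusted p = 0.00698), Tbx20, Mef2a and Gata4.

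Patterns over the 16 sorted arrays were compared by Pearson's r of log2 signal, given as a description, since arrays share days, batches and the gap of day 5. Tnnt2 was most like Cryab (r = 0.99), a small heat shock protein, Rcsd1 (0.97), Tnni1 (0.97), Vamp5 (0.96) and Ttr (0.96), the last a carrier of thyroid hormone and an endoderm marker. Actc1 was most like 3 genes of the thick filament, the alpha myosin heavy chain Myh6 (r = 0.97), the light chain Myl4 (0.97) and the binding protein Mybpc3 (0.96), with r of 0.95 to 0.99 within each batch. Tnnc1 was most like Myocd (r = 0.97), a coactivator of serum response factor, then Eno3 and Sphkap. Tpm1 was most like Cck, Armh4 and the myosin chaperone Unc45b (r between 0.95 and 0.96). For Tnnt1 the nearest were the embryonic globin Hbb-y (r = 0.96), Acadvl and the collagen Col3a1, and for Tnni2 Specc1, Slc25a45 and Ncf1. Tnni1 was most like Cryab, Tnnt2 and Hba-x, and the last held in batch 2 (r = 0.96) but not in batch 1 (r = 0.35). For Tnni3 they were Ociad2, Ppp1r14c and Klhl23, and for Acta1 Dach1, Crybg3 and Pi16. Lmod2, below the median signal on all of these arrays, had its highest r, 0.80, with Tlcd5, then Kctd14 and Casz1. Among the members, Tnnt2 and Tnni1 were most alike (r = 0.97), followed by Tnnc1 with Tpm1 (0.95) and Tnnt2 with Tnnc1 (0.94), and Tnni2 had r of 0.14 to 0.30 with Lmod2, Acta1, Tpm1 and Tnnc1 but 0.86 with Tnnt1.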

How the data were processed

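Per the submitters' processing notes, the authors made the deposited intensity values with GCOS 1.4 and MAS5: 1 signal per probe set and array, on a linear scale, with the 2% trimmed mean scaled to 150 on each of the 18 arrays. Per the labels' protocols, RNA was amplified in 2 rounds from an oligo dT primer. Of 45101 probe sets 34945 had 1 gene symbol in the platform annotation, 932 had several and 9160 had none, and 64 were controls. Each gene was read from 1 probe set, the one with the highest mean, avoiding cross-hybridising designs where another existed. Genes at 22.5, the median signal, or above on at least 2 arrays were tested with limma 3.58.1 (R 4.3.3; lmFit and eBayes with trend) on log2(signal + 6.8), where 6.8 is the 25th percentile, in 9 group means. P-values were adjusted by Benjamini and Hochberg over 13379 genes, with a threshold of 0.05. The procedure was first tested on simulated data with independent noise and no batch differences. It was not tested on data with batch differences such as those seen here. Figures used Python 3.11.15.

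The 10 genes, the lists and the tests were chosen with earlier results of these data known. Genes outside the 10 were named by rule: per list and comparison up to 4 that passed, lowest p first, or else the 2 with the lowest p; the 5 genes most correlated with Tnnt2 and the 3 most correlated with each other member; and Nkx2-5 and Myh6 as checks. Gata4 in the cardiomyocytes, and Myod1 and Myog, below the filter, were named after their values were seen. Titles number the batches, so same-numbered sorted arrays were taken as paired by label. The differences between batches correlated at -0.183 to 0.653 over 28 pairs of groups, 13 of them over 0.1. Alternatives changed the offset, filter, normalization, probe set rule, trend, batch block, arrays and days. Promoter positions are of GRCm38.p6.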

Additional observations from a re-analysis of the deposited data

How the results depend on the processing

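Of 790 values of the members under the alternatives other than leaving out 1 array, 737 were counted as the same. Outside the within-batch values, that means direction and side of the threshold were kept. Of the rest 19 passed the threshold, 18 fell short of it, 10 changed sign, and 6 within-batch values moved by more than the standard error. Within-batch values were judged by that move alone, so their changes of sign were not counted. On days 5 and 6 the GFP+ minus GFP- difference within batch 1 had the opposite sign to the fit for Tnni3 (0.83), Acta1 (0.44), Tnni2 (-0.034) and Tnnt1 (-0.16). Within batch 2 this was so for Tnnc1 (-0.046) and Tpm1 (-0.057). With batch as a replicate block, genes that passed numbered 724 over all days (358 without the block), 35 on days 5 and 6 (20), 1427 on days 7 and 8 (887) and 142 for the divergence (19), and the members that passed numbered 2, 3 and 7 over all days, on days 7 and 8, and in GFP+ cells over time. Members passed on days 7 and 8 numbered 2 with an offset of 32 or quantile normalization. In GFP+ cells over time (3 members) and in GFP- cells over time (2 members), 1 member passed with no filter, with no variance trend, with the sorted arrays alone and with day 8 against day 5. With every probe set tested, the features that passed numbered 1380 on days 7 and 8, 4855 in GFP+ cells, 2530 in GFP- cells, 31 for the divergence and 12020 for the cardiomyocytes (5798), as more features were tested. Sorted arrays alone gave 13, 553 and 0 genes on days 5 and 6, on days 7 and 8, and for the divergence. An offset of 1 gave 13 genes on days 5 and 6. The divergence had 0 genes with an offset of 1, no filter or no trend, 118 with an offset of 32, 32 after quantile normalization, 50 with the mean over probe sets and 1 with day 8 against day 5. Without both day 5 arrays of batch 2, an alternative chosen after seeing the data, members passed numbered 1, 3, 0 and 1 over all days, on days 7 and 8, in GFP+ and in GFP- cells over time, and genes numbered 4 on days 5 and 6, 1086 in GFP+ cells (2590), 898 in GFP- cells (1673) and 0 for the divergence.

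Apart from the within-batch values, the reversed values, none past the threshold, were as follows. On days 5 and 6 they were Tnnt1 (-0.0040) and Tnni2 (-0.0063) with an offset of 32, and Tnni3 (0.73) and Tnnt1 (-0.086) without both day 5 arrays. In GFP- cells over time they were Tpm1 (-0.017) with the mean over probe sets, Tnni3 (-0.061) with day 8 against day 5, and Tnnc1 (-0.37) and Tpm1 (-0.23) without both day 5 arrays. The divergence of Tnni1 became 0.13 with an offset of 32 and 0.27 without both day 5 arrays. With an offset of 1 the ratio of Tnni3 to Tnni1 in GFP+ cells over time became 0.18 and that of Tnni2 to Tnni1 in GFP- cells 0.21. Without both day 5 arrays the ratio of Tnni3 to Tnni1 became 0.48 for the fractions, 0.43 in GFP+ and 0.22 in GFP- cells over time, and in GFP- cells that of Tnni2 to Tnni1 became 1.09 and that of Tnnt1 to Tnnt2 0.18. The causes were not tested.

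Leaving out each array in turn, genes passed numbered 129 to 587 over all days, 1 to 79 on days 5 and 6, 145 to 1386 on days 7 and 8, 469 to 3126 in GFP+ and 316 to 1961 in GFP- cells over time, 0 to 157 for the divergence and 3579 to 5965 for the cardiomyocytes. Members passed numbered 0 to 1, 0 to 2, 0 to 6, 0 to 3 and 2 to 5 over all days, on days 7 and 8, in GFP+ and in GFP- cells over time and for the cardiomyocytes. Lmod2 has no value without either cardiomyocyte array, since it then fails the filter. Differences that changed sign ranged as follows. Over all days Tnnt1 lay between -0.28 and 0.0039 and Tnni1 between -0.030 and 1.59. On days 5 and 6 Tnnt2 lay between -0.76 and 3.05, Tnnc1 between -0.42 and 1.51, Tnni1 between -0.76 and 2.47, Tnnt1 between -0.28 and 0.28, Tnni2 between -0.38 and 0.53, Tpm1 between -0.14 and 0.60, Tnni3 between -0.64 and 0.45, Acta1 between -0.78 and 0.51 and Actc1 between -0.29 and 1.77. In GFP- cells over time Tpm1 lay between -0.23 and 0.46, Tnnc1 between -0.37 and 1.20 and Acta1 between -0.80 and 0.096. The divergence lay between -0.90 and 2.91 for Tnnt2, -1.77 and 1.46 for Tnni1, -0.27 and 1.79 for Actc1 and -0.56 and 0.0059 for Tnnt1. The ratio of Tnni3 to Tnni1 lay between -0.35 and 0.48 for the fractions, -0.44 and 0.43 in GFP+ cells over time and -2.31 and 0.22 in GFP- cells over time. In GFP- cells the ratio of Tnni2 to Tnni1 lay between -1.07 and 1.09 and that of Tnnt1 to Tnnt2 between -1.76 and 0.18. Tnni2 and Lmod2, near or below the median signal, are limited by signal over background.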
